A study of Mus musculus with 6 samples.

Results

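The genes described are 10 transcripts of the integrated stress response and the unfolded protein response, Atf4, Ddit3, Ddit4, Ppp1r15a, Asns, Chac1, Xbp1, Atf6, Hspa5 and Herpud1, chosen by symbol from the 15319 genes of the deposited count table. All 10 were listed and all 10 had counts. RNA-Seq was performed on tumor-infiltrating regulatory T cells (Tregs) from 2 groups of mice on the C57BL/6J background. The WT group carried Foxp3Yfp-Cre alone, and the cKO group carried Foxp3Yfp-Cre with Xrcc6flox/flox, which deletes Ku70 in cells that express Foxp3. Both groups thus express the Cre, and cells that lost Foxp3 expression after recombination would keep the deletion. Mice aged 8 to 10 weeks were given LLC cells, a mouse Lewis lung carcinoma line, into the tail vein, and lung tumors were taken on day 21. Each group gave 3 libraries, whose values are always listed in the order of replicates 1, 2 and 3. No label says whether these came from separate mice, so p-values measure only the spread between libraries, which may be technical.

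The integrated stress response starts when kinases that sense amino acid shortage, misfolded protein, heme loss or viral RNA phosphorylate eIF2α, which lowers general translation and raises translation of ATF4. ATF4 then induces genes for amino acid supply, such as Asns, the factor CHOP (Ddit3) and a phosphatase subunit that restores translation (Ppp1r15a). The unfolded protein response uses PERK, IRE1 and ATF6 in the endoplasmic reticulum (ER) membrane, and T cells draw on it when activation raises their protein synthesis. IRE1 splices Xbp1 mRNA and ATF6 is freed by cleavage in the Golgi, so counts per gene show neither step, nor the translation of ATF4.

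The start-site regions of 4 genes are shown because they hold the short sequences through which these pathways are known to act. RefSeq windows from 250 bases before to 50 bases after the start site were found for 9 of the 10 genes, without Atf6. On both strands, 4 motifs were searched, the ER stress element ERSE (CCAAT and CCACG separated by any 9 bases), ERSE-II (ATTGG and CCACG separated by any 1 base), the unfolded protein response element UPRE (TGACGTGG) and the C/EBP-ATF response element CARE (TGATGNAA). Among 32851 windows of this length, 0.119% held ERSE, 0.0365% ERSE-II, 0.676% UPRE and 3.97% CARE. Hspa5 held ERSE, Herpud1 held ERSE-II and CARE at positions that do not overlap, and Asns and Chac1 held CARE. The UPRE letters were in 0 of the 9 windows. A match shows only that the letters are there, and its use was not measured. The stretches below run 5′ to 3′ on the strand of the gene (build GRCm38.p6) and end at the base before the RefSeq start site, with motif matches in capitals. For Herpud1 this site lies a few bases before the first base of the GENCODE gene. For the others it lies inside the GENCODE gene, which starts further upstream. The whole Hspa5 stretch is thus inside its gene. So are the last bases of the Asns and Chac1 stretches, with the CARE of Asns but not that of Chac1. The stretches lie at chr2:34771970-34772089 (plus strand) for Hspa5, chr8:94386309-94386428 (plus strand) for Herpud1, chr6:7693210-7693329 (minus strand) for Asns and chr2:119351042-119351241 (plus strand) for Chac1.
Hspa5: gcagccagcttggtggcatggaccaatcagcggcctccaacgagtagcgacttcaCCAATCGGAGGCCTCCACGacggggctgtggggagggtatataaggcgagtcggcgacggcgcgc
Herpud1: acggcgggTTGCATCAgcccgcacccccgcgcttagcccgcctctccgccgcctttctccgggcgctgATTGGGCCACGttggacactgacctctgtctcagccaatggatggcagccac
Asns: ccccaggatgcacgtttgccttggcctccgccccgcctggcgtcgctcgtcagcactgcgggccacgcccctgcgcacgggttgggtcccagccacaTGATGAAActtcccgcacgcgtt
Chac1: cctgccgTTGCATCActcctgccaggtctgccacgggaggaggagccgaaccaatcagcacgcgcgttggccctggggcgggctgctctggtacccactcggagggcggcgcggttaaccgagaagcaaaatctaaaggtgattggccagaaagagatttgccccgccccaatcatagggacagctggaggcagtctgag

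Total counts were 19032620 to 21707706 in the WT group and 20762042 to 23159815 in the cKO group. WT replicate 2 stood apart from the other libraries, with 11513 genes at 1 count or more against 14442 to 14737, so each comparison is given with and without it. The defining Treg and CD4 T cell markers Foxp3, Il2ra, Ctla4, Ikzf2, Cd3e and Cd4 were all expressed, at a summed 3596 to 4401 CPM in the WT group and 3682 to 3970 CPM in the cKO group. CPM is the count of a gene relative to a library total that edgeR's TMM method has scaled. Xrcc6, the deleted gene, was at 20.9, 63.1 and 23.8 CPM in WT Tregs and at 5.24, 3.51 and 4.18 CPM in cKO Tregs, so every library matched its label.

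None of the 10 stress response genes differed detectably between cKO and WT Tregs, with or without WT replicate 2. In edgeR's quasi-likelihood test over all 6 libraries, 0 of the 10 genes had an adjusted p under 0.05 and 0 had an unadjusted p under 0.05, a limit passed by 1.81% of all 15315 genes tested. Without WT replicate 2, 0 of the 10 passed the unadjusted limit, against 3.01% of 15302 genes, and 0 had an adjusted p under 0.05, against 0.00654% of genes, which is Xrcc6 alone. DESeq2 and limma's voomWithQualityWeights also gave 0 of 10 at the unadjusted limit with either set of libraries. With WT replicate 3 left out as well, so that WT replicate 1 stood alone, 2 of the 10 (Ppp1r15a and Asns) passed the unadjusted limit of edgeR, against 8.2% of 15287 genes. Among markers of other cells, 2 of 4 neutrophil genes with counts (S100a9 and Retnlg) and 1 of 8 B and plasma cell genes (Mzb1) had an unadjusted p under 0.05 from edgeR with higher cKO values, and their part in the levels below was not tested. Macrophage and dendritic cell markers were more abundant, with 0 of 8 past that limit. They summed to 164, 648 and 643 CPM in the WT and 218, 479 and 903 CPM in the cKO libraries. Their part was likewise not tested. Fewer cells of a kind and less RNA per cell cannot be told apart in such bulk samples. The narrowest 95% intervals from edgeR allowed a cKO level of 0.817 to 1.27 times WT for Xbp1, 0.742 to 1.25 times for Ddit4, 0.735 to 1.33 times for Hspa5 and 0.657 to 1.15 times for Atf4. Those of Ddit3 (0.602 to 1.26 times), Atf6 (0.605 to 1.38 times), Ppp1r15a (0.577 to 1.56 times) and Herpud1 (0.399 to 1.39 times) were wider. For Asns the interval ran from 0.275 to 2.21 times, and for Chac1, the widest, from 0.412 to 17.5 times.

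The 10 genes spanned more than 3 orders of magnitude when CPM were divided by the length of the merged exons in GENCODE vM21. Ppp1r15a was at 213 to 494 CPM per kb over the 6 libraries, Ddit4 at 182 to 233, Hspa5 at 180 to 223 and Atf4 at 130 to 181. The ranges of neighbors in this order overlapped. Within every library Atf4 was nonetheless below Ppp1r15a, Ddit4 and Hspa5, whose own order changed between libraries. Herpud1 (34.9 to 104 CPM per kb) and Xbp1 (41.3 to 49.8) came next and overlapped each other. Ddit3 followed at 18.7 to 31.0 CPM per kb, below every library of Xbp1. Atf6 (3.28 to 6.28) and Asns (1.56 to 6.54) overlapped at the low end, and Chac1 was at or below 0.163 CPM per kb in every library.

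**Figure D1:**
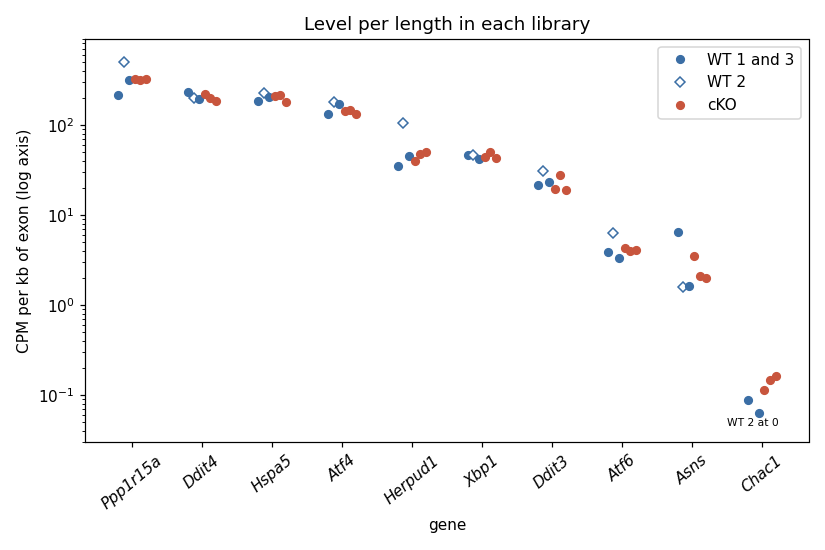
Level of each gene per length in 6 libraries, as CPM per kb of merged exons on a log axis. Filled blue circles are WT replicates 1 and 3, open diamonds WT replicate 2 and red circles the cKO libraries. Ppp1r15a, Ddit4, Hspa5 and Atf4 lie above 130 CPM per kb in every library, and Chac1 lies at or below 0.163.

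Atf4 encodes the transcription factor at the center of the integrated stress response. In GRCm38 it occupies chromosome 15 from 80255184 to 80257541. Atf4 measured 309, 426 and 398 CPM in WT Tregs against 336, 342 and 307 CPM in cKO Tregs. WT replicates 2 and 3 were the highest, and WT replicate 1 lay among the cKO libraries. As a log2 fold change, cKO over WT, edgeR gave -0.20 (SE 0.17, unadjusted p = 0.28, Benjamini-Hochberg adjusted p = 0.984). It was -0.11 (SE 0.17, unadjusted p = 0.539, edgeR) in the 5 other libraries once WT replicate 2 was dropped.

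Ddit3 encodes CHOP, a factor downstream of ATF4 that is linked to cell death under lasting ER stress. It lies on chromosome 10 from 127290774 to 127296288 and overlaps Mars, the cytosolic methionine tRNA synthetase gene, on the other strand. Ddit3 measured 36.6, 53.2 and 39.3 CPM in WT Tregs against 33.2, 47.5 and 32.0 CPM in cKO Tregs. A single library in each group, replicate 2, stood above the others. For Ddit3, edgeR gave a log2 fold change of -0.20 (SE 0.23, unadjusted p = 0.417), and -0.02 (SE 0.19) without WT replicate 2.

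Ppp1r15a encodes GADD34, the stress-induced subunit that directs protein phosphatase 1 to eIF2α and so reverses the response. The gene lies on chromosome 7 from 45522916 to 45526268 and overlaps Tulp2 on the other strand. Ppp1r15a measured 627, 1451 and 920 CPM in WT Tregs against 953, 928 and 958 CPM in cKO Tregs. The WT group held both the lowest and the highest library, while the cKO libraries lay close together. Its mean was 999 ± 418 CPM in WT against 946 ± 16.0 CPM in cKO Tregs (SD, n = 3 each). For Ppp1r15a, edgeR gave a log2 fold change of -0.08 (SE 0.31, unadjusted p = 0.805). With WT replicate 2 out, every cKO library was above both remaining WT libraries, and the log2 fold change was 0.29 (SE 0.20, unadjusted p = 0.189 from edgeR).

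Ppp1r15a shared its lowest and its highest library with the summed immediate early and heat shock genes, which are quickly induced by activation and by tissue dissociation. All 14 genes of that list were expressed. Their summed level was 14820, 25294 and 19216 CPM in the WT libraries and 19281, 16982 and 18849 CPM in the cKO libraries. In this sum WT replicate 1 was the lowest and WT replicate 2 the highest, as for Ppp1r15a. Of the 14 genes, 8 were highest in WT replicate 2, against 37.6% of all genes at a mean of 10 CPM or more. The heat shock genes Hspa1a, Hspa1b and Hsp90aa1 were instead highest in cKO replicate 1 and lowest in cKO replicate 3. None of the 14 genes had an unadjusted p under 0.05 from edgeR with or without WT replicate 2. Over all genes, 1.81% and, without WT replicate 2, 3.01% passed that limit. The part of these 14 genes in the spread of Ppp1r15a was not tested.

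Ddit4 encodes REDD1, an inhibitor of mTORC1 that is induced by ATF4, glucocorticoids and hypoxia. It lies on chromosome 10 from 59949669 to 59951834. Ddit4 measured 408, 347 and 336 CPM in WT Tregs against 388, 346 and 319 CPM in cKO Tregs. Replicate 1 was the highest library in both groups, and the groups overlapped. For Ddit4, edgeR gave a log2 fold change of -0.05 (SE 0.16, unadjusted p = 0.759) and -0.09 (SE 0.16) without WT replicate 2.

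Asns encodes asparagine synthetase, a target of ATF4 whose start-site region is shown above, and lies on chromosome 6 from 7675169 to 7693254. Asns measured 17.9, 4.28 and 4.43 CPM in WT Tregs against 9.56, 5.76 and 5.43 CPM in cKO Tregs. WT replicate 1 stood above every other library. The mean was 8.86 ± 7.81 CPM in WT against 6.92 ± 2.29 CPM in cKO Tregs (SD, n = 3 each), a log2 fold change of -0.36 (SE 0.64, unadjusted p = 0.595 from edgeR). The direction rested on WT replicate 1, since the log2 fold change was 0.67 without it (unadjusted p = 0.25 from edgeR). WT replicate 1 also had the highest summed level of CD8 T and NK cell markers, 747 CPM against 85.9 to 471 CPM in the others, of which Nkg7 made 726 CPM. The other genes of that list were at 18.5 CPM (Cd8b1), 2.06 CPM (Cd8a) and 0.478 CPM (Klrb1c) in WT replicate 1. Cd8b1 ranged from 5.22 to 17.9 CPM in the other libraries, and the part of other cells in the Asns level was not tested.

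Chac1 encodes a glutathione-degrading enzyme that is induced by ATF4 and CHOP. Its CARE is shown above, and the gene lies on chromosome 2 from 119351229 to 119354381. Chac1 was counted 3, 0 and 2 times in WT Tregs against 4, 5 and 6 times in cKO Tregs. For WT replicate 2, at 0, the level could still be that of 3 counts, or 0.141 CPM. Chac1 was the only 1 of the 10 genes whose groups did not overlap (p = 0.1 in a two-sided exact permutation test, which 3 libraries against 3 cannot go below), which 8.24% of all genes showed, 5.01% with higher and 3.23% with lower cKO values. The ratio of the summed counts, corrected for library size, was 2.84 in favor of the cKO group with a 95% interval of 0.981 to 9.99, which covers counting error only. The ratio without WT replicate 2 was 1.86 (0.641 to 6.53). At this depth no difference in Chac1 was detectable.

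**Figure D2:**
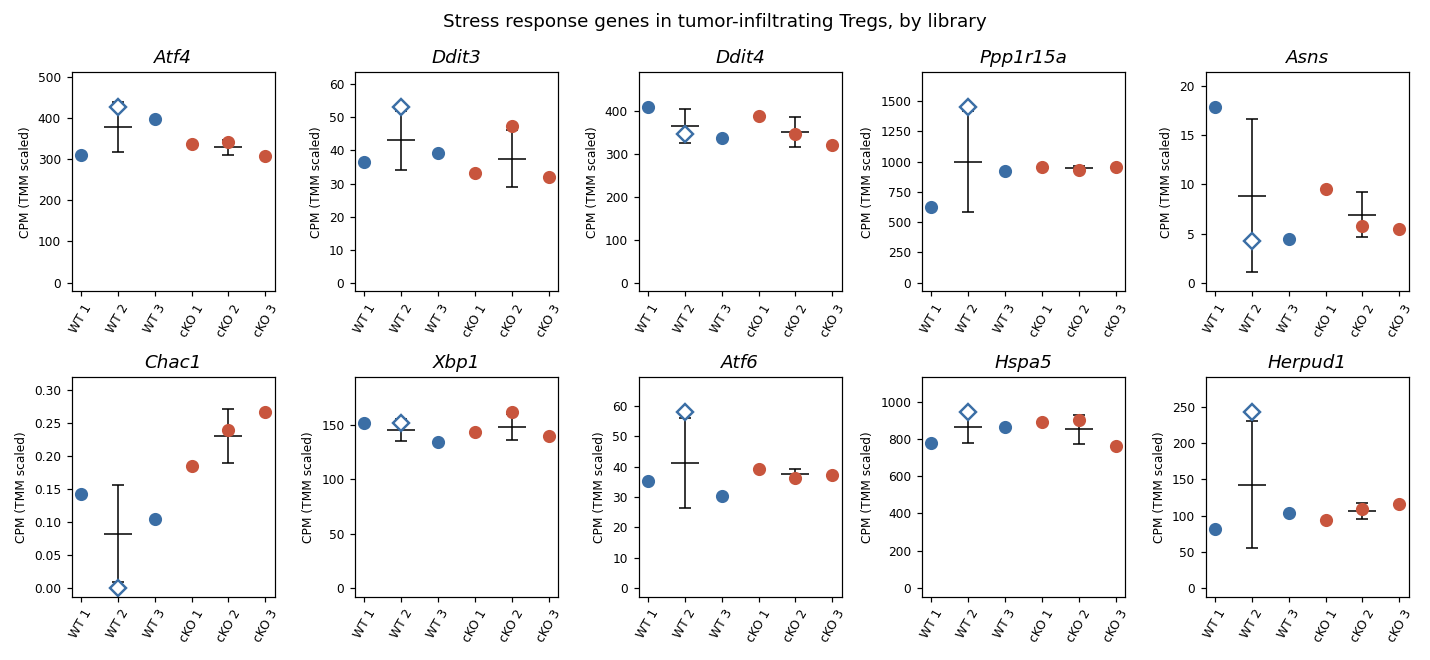
Level of the 10 genes in CPM (TMM scaled) in the 3 WT libraries (blue) and 3 cKO libraries (red), with group means and SD in black (n = 3) and WT replicate 2 as an open diamond. Ppp1r15a, Atf6 and Herpud1 are highest in WT replicate 2, Asns is highest in WT replicate 1, and only Chac1, at 0 to 6 counts, has groups that do not overlap.

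Xbp1 encodes the factor that is activated by IRE1 and drives ER expansion in secretory cells such as plasma cells. The gene lies on chromosome 11 from 5520659 to 5525893. Xbp1 measured 152, 152 and 134 CPM in WT Tregs against 143, 162 and 140 CPM in cKO Tregs. No library stood out, and WT replicate 2 lay within the range of the others. For Xbp1, edgeR gave a log2 fold change of 0.03 (SE 0.14, unadjusted p = 0.858) and 0.05 (SE 0.14) without WT replicate 2, and its sign turned when the library total alone was used for scaling. The 8 B and plasma cell markers summed to 16.97 to 65.2 CPM in the WT group and 16.8 to 61.0 CPM in the cKO group. Of these, Mzb1, an ER protein of plasma cells, was at 0.0478, 0 and 0.104 CPM in the WT libraries and at 0, 1.06 and 2.98 CPM in the cKO libraries, and Sdc1 was at or below 3.12 CPM in all 6. The part of such cells in the Xbp1 level was not tested.

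Atf6 encodes the ER membrane sensor that is cleaved to an active factor, and lies on chromosome 1 from 170704674 to 170867771. Atf6 measured 35.3, 57.9 and 30.3 CPM in WT Tregs against 39.3, 36.4 and 37.2 CPM in cKO Tregs. WT replicate 2 stood above all others, and the cKO libraries lay close together, at 37.6 ± 1.47 CPM against 41.2 ± 14.7 CPM in the WT group (SD, n = 3 each). For Atf6, edgeR gave a log2 fold change of -0.13 (SE 0.25, unadjusted p = 0.621). Apart from WT replicate 2, the WT libraries all lay below the cKO libraries, and it was 0.20 (SE 0.13, unadjusted p = 0.177 from edgeR).

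Hspa5 encodes BiP, the main HSP70 chaperone of the ER lumen, whose ERSE is shown above. It lies on chromosome 2 from 34771970 to 34777547. Hspa5 measured 778, 943 and 866 CPM in WT Tregs against 892, 902 and 760 CPM in cKO Tregs. The groups overlapped, though WT replicate 2 lay above every cKO library and cKO replicate 3 below every WT library. The means were 863 ± 82.7 CPM in WT against 851 ± 79.1 CPM in cKO Tregs (SD, n = 3 each), a log2 fold change of -0.02 (SE 0.18, unadjusted p = 0.921 from edgeR) and 0.05 (SE 0.18) without WT replicate 2. The deposited counts of Hspa5 were not whole numbers in any of the 6 libraries, so its values rest partly on an estimated assignment of reads.

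Herpud1 encodes an ER membrane protein that takes part in the degradation of misfolded proteins, and lies on chromosome 8 from 94386438 to 94395377. It overlaps Gm15890, an antisense gene, and its ERSE-II and CARE are shown above. Herpud1 measured 81.4, 243 and 104 CPM in WT Tregs against 93.5, 109 and 116 CPM in cKO Tregs. WT replicate 2 was 2.41 times the mean of the other 5 libraries, the largest such ratio among the 10 genes, while those 5 lay between 81.4 and 116 CPM. For Herpud1, edgeR gave a log2 fold change of -0.42 (SE 0.39, unadjusted p = 0.307), and of 0.20 (SE 0.16, unadjusted p = 0.253) without WT replicate 2.

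**Figure D3:**
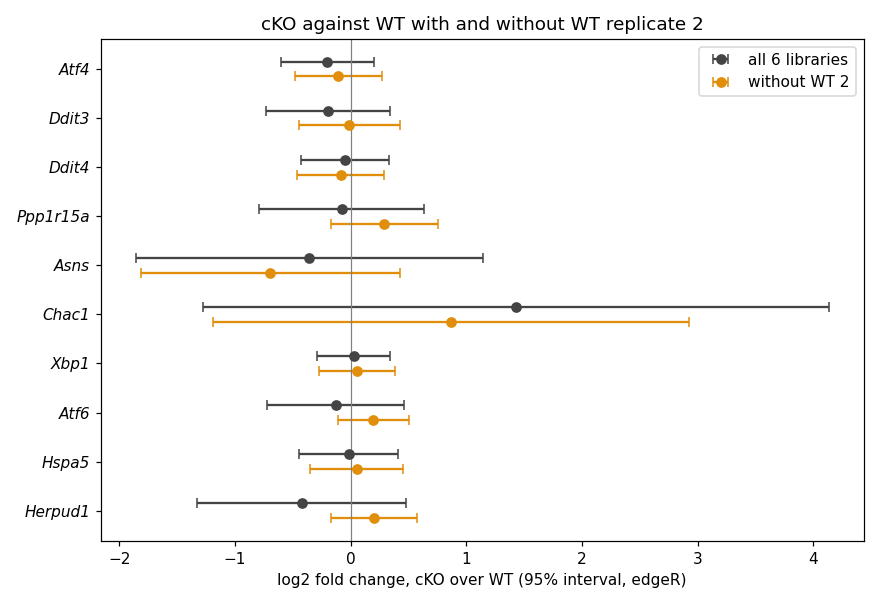
Log2 fold change of cKO over WT with 95% intervals from edgeR for the 10 genes, over all 6 libraries (grey) and without WT replicate 2 (orange). Every interval includes 0, and Ppp1r15a, Atf6, Hspa5 and Herpud1 change sign between the fits, at -0.08 and 0.29, -0.13 and 0.20, -0.02 and 0.05, and -0.42 and 0.20.

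The SD was smaller in the cKO group for 9 of the 10 genes, though by little for Ddit3, Ddit4 and Hspa5. Among the 8 genes at a mean of 10 CPM or more it was smaller for 7, against 84.9% of all 8447 genes in that range. Leaving out WT replicate 2 made the SE from edgeR smaller for 6 of these 8 genes, against 92.6% of all genes in that range. WT replicate 2 was the highest of the 6 libraries for 6 of the 10 genes, Atf4, Ddit3, Ppp1r15a, Atf6, Hspa5 and Herpud1, and for 29% of all genes. All 6 are among the 8 genes at 10 CPM or more, where WT replicate 2 was the highest for 37.6% of all genes. It was at least 1.5 times the mean of the others for 3 of these 8 genes, Ppp1r15a, Atf6 and Herpud1, and for 17.9% of all genes in that range. Its removal turned the sign of the log2 fold change for 4 of these 8 genes, against 34.4% of all genes in that range. Without it, the groups did not overlap for 3 of the 10, Ppp1r15a, Chac1 and Atf6, all with higher cKO values, against 8.48% of all genes in that direction, 7.53% in the other and 16% in either. Of the other 5 libraries, the highest was less than 1.5 times the lowest for 7 of the 10 genes, with Ppp1r15a (1.53 times), Chac1 (2.56 times) and Asns (4.04 times) as the exceptions.

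**Figure D4:**
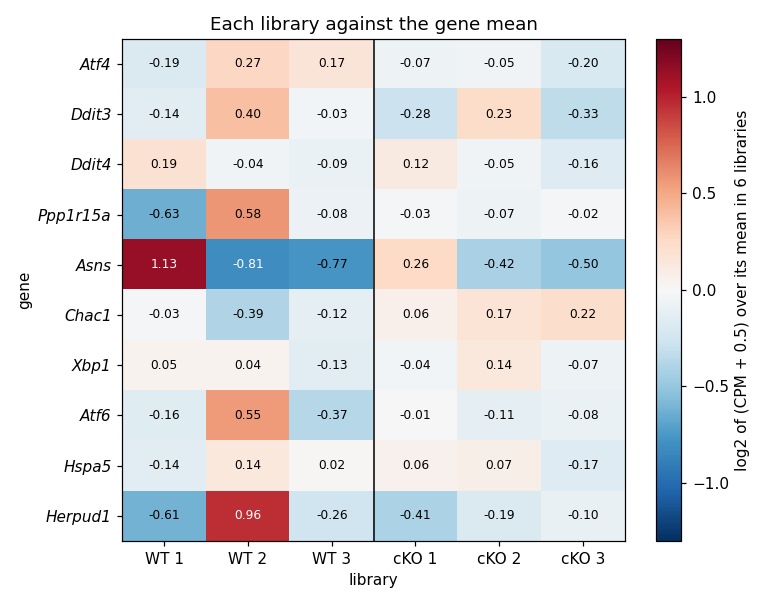
Log2 of (CPM + 0.5) in each library over the mean of the 6 libraries, for the 10 genes (rows) and 6 libraries (columns). Red is above and blue below the mean. WT replicate 2 is at 0.96 for Herpud1 and 0.58 for Ppp1r15a, and WT replicate 1 is at 1.13 for Asns.

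The other genes of these pathways were read from 7 lists of 97 genes, of which 93 had counts and Fgf21, Cth, Cbs and Ern2 were not in the table. In edgeR over all 6 libraries, 0 of the 93 had an unadjusted p under 0.05, against 1.81% of all 15315 genes tested. At an adjusted p under 0.05 there were 0 of the 93 and 0 of all genes. Log2 fold changes of the 93 were above 0 for 52 genes and below 0 for 41, with a median of 0.04. The median was 0.04 over all genes tested and 0.0064 over those at a mean of 10 CPM or more, the range that held 79 of the 93. In the fit that left out WT replicate 2 the values were 50 and 43 with a median of 0.02, against -0.01 over all genes. There, 1 of the 93 had an unadjusted p under 0.05, against 3.01% of all 15302 genes. That gene was Trib3, a pseudokinase induced by ATF4 and CHOP, named here after its values were seen. Trib3 measured 2.34, 7.24 and 2.03 CPM in WT Tregs against 3.20, 3.75 and 4.05 CPM in cKO Tregs. Its log2 fold change was -0.08 (unadjusted p = 0.905 from edgeR) and, without WT replicate 2, 0.74 (unadjusted p = 0.0426 and adjusted p = 0.997 from edgeR).

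Upstream of ATF4, the 8 kinases and regulators of eIF2α had log2 fold changes of -0.56 to 0.35, with 5 above 0 and a median of 0.06. The most abundant were Eif2s1, which encodes eIF2α itself, and Ppp1r15b, the constitutive partner of the eIF2α phosphatase. Eif2s1 was at 100.6 ± 17.8 CPM in WT against 94.3 ± 7.93 CPM in cKO Tregs, and Ppp1r15b at 72.6 ± 9.93 and 76.7 ± 7.15 CPM (SD, n = 3 each). Neither difference exceeded the spread between libraries, with log2 fold changes of -0.09 (SE 0.17) and 0.08 (SE 0.15).

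Downstream, 12 other regulators linked to ATF4 ranged from -1.19 to 2.81 with a median of -0.04, and 0.24 without WT replicate 2. Both ends were genes of low level, Nupr1 at a mean of 1.31 CPM and Vldlr at 0.082 CPM. The rest lay between -0.34 and 0.63. Cebpb, a bZIP partner of ATF4 and CHOP, was at 210 ± 52.7 CPM in WT against 166 ± 20.8 CPM in cKO Tregs (SD, n = 3 each), a log2 fold change of -0.34 (SE 0.21, unadjusted p = 0.142 from edgeR) and -0.11 without WT replicate 2. Atf3, an early stress-induced repressor, measured 60.6, 128 and 89.3 CPM in WT Tregs against 70.9, 97.8 and 109 CPM in cKO Tregs. Its group means were both 92.6 CPM, and its log2 fold change was 0.31 (unadjusted p = 0.208 from edgeR) without WT replicate 2.

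For amino acid supply, 15 genes of synthesis and transport had a median log2 fold change of -0.04, with 6 above 0 and 9 below. Slc3a2, the heavy chain of several amino acid transporters, was at 548 ± 76.8 CPM in WT against 493 ± 59.3 CPM in cKO Tregs (SD, n = 3 each). Slc38a2, a glutamine transporter that responds to amino acid shortage, measured 128, 286 and 214 CPM in WT Tregs against 176, 161 and 187 CPM in cKO Tregs. As with Ppp1r15a, the lowest and the highest library were WT replicates 1 and 2. The log2 fold change of Slc38a2 was -0.26 (unadjusted p = 0.376 from edgeR) and 0.03 without WT replicate 2. Without WT replicate 1 it was -0.52 (unadjusted p = 0.0246 from edgeR). In that fit 874 of 15312 genes had an unadjusted p under 0.05, against 277 of 15315 over all 6 libraries. The 12 cytosolic tRNA synthetases, another set of ATF4 targets, lay between -0.14 and 0.48, with 9 above 0 and a median of 0.05. Eprs was at 123 ± 2.97 and 112 ± 9.37 CPM and Sars at 107 ± 3.95 and 116 ± 12.8 CPM in the WT and cKO groups (SD, n = 3 each).

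On the side of the ER, 9 sensors and processing genes ranged from -1.02 to 0.39, with a median of 0.09. Rtcb, the ligase that joins the spliced ends of Xbp1 mRNA, was at 107 ± 17.5 CPM in WT against 120.5 ± 4.62 CPM in cKO Tregs (SD, n = 3 each). Its log2 fold change was 0.16 (SE 0.16), and that of Traf2, an adaptor bound by IRE1, was -0.17 (SE 0.20) and 0.01 without WT replicate 2.

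The 19 ER chaperones and folding enzymes had 11 log2 fold changes above 0 and 8 below, between -0.51 and 0.56, with a median of 0.02. Pdia3, a disulfide isomerase, was at 464 ± 36.3 and 479 ± 30.5 CPM in the WT and cKO groups (SD, n = 3 each). Calr, the lectin chaperone calreticulin, was at 290 ± 68.5 and 299 ± 29.2 CPM (SD, n = 3 each), with log2 fold changes of 0.04 and, without WT replicate 2, -0.13. In WT replicate 2, Calr was at 214 CPM, the lowest of the 6 libraries, while Hspa5 was at its highest there. The 18 genes of ER-associated degradation and translocation had 11 values above 0 and a median of 0.09. Vcp, the ATPase that extracts proteins from the ER, was at 245 ± 26.0 and 262 ± 1.02 CPM, and Sec61a1, the translocon channel, at 236 ± 19.0 and 252 ± 15.1 CPM (SD, n = 3 each), with unadjusted p = 0.506 and 0.515 from edgeR.

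**Figure D5:**
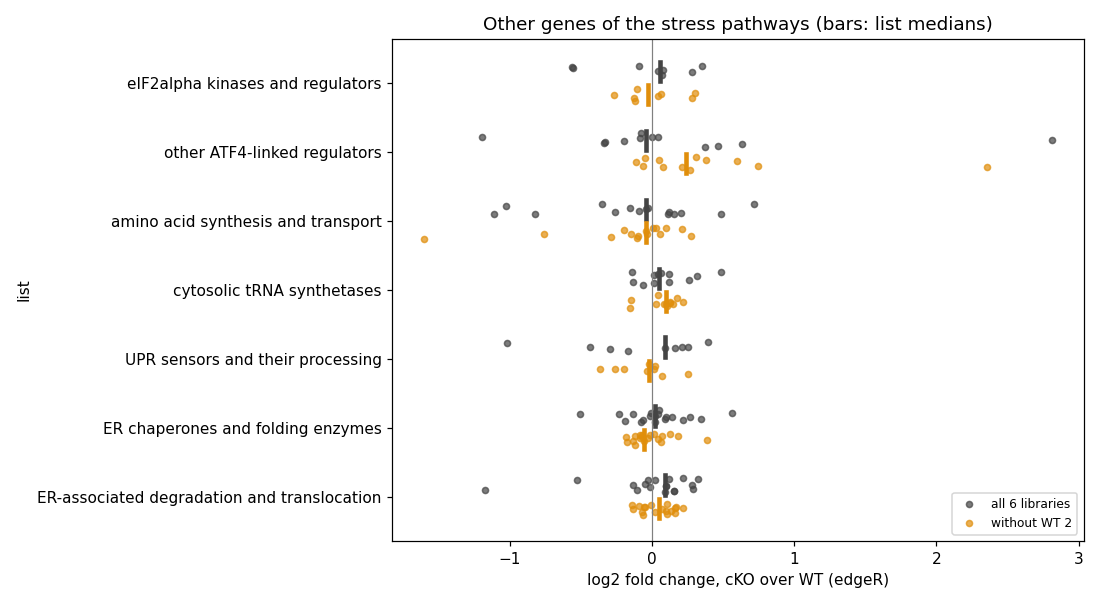
Log2 fold change of cKO over WT from edgeR for each gene of the 7 pathway lists, over all 6 libraries (grey) and without WT replicate 2 (orange). Bars are list medians, which lie between -0.04 and 0.09 over all 6 libraries.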

How the data were processed

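The authors aligned clean paired-end reads to GRCm38 and deposited expected counts per gene symbol without normalization. The submitters' processing notes name Bowtie2 (version 2.3.4.3) and RSEM (version 1.3.1). The annotation and strand setting are not given in the sources used here. Because 21.6% of the values were fractional, each was rounded before testing. Total counts were 19032620 to 23159815 per library. Genes with at least 1 count were scaled by TMM and tested for cKO against WT with edgeR's quasi-likelihood test (edgeR version 4.0.16, R version 4.3.3) with Benjamini-Hochberg adjustment over all genes tested, with and without WT replicate 2. SEs and 95% intervals were derived from each estimate with its F statistic. Scripts were tested on simulated data. Alternative settings were DESeq2 (version 1.42.0), the scaling by RLE or by library totals alone, filterByExpr (minimum count 10), voomWithQualityWeights (limma version 3.58.1), robust dispersions, a term for the replicate number, and fits lacking each library in turn.

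The 10 genes, the lists and the tests were chosen with earlier results of these data known. Named genes were the 10, Xrcc6, the 2 most abundant genes of each pathway list and any list gene past an adjusted p of 0.05, of which there were 0 by edgeR with or without WT replicate 2. Marker lists of macrophages and dendritic cells, at a summed 164 to 648 CPM in the WT and 218 to 903 CPM in the cKO group, of neutrophils (0.478 to 7.05 and 5.80 to 8.98 CPM) and of epithelium, endothelium and stroma (99.7 to 185 and 111 to 154 CPM) were also read. The motif letters were chosen after the data were seen, and those of CARE were shortened after a first search with a longer form. Positions come from GENCODE vM21 and promoter sequences from RefSeq, both on GRCm38.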

Additional observations from a re-analysis of the deposited data

How the results depend on the processing

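Of the 10 genes, 0 had an unadjusted p under 0.05 under any alternative over all 6 libraries. With WT replicate 2 already out, leaving out a further library gave 0 to 2, the 2 being Ppp1r15a (log2 fold change 0.59, unadjusted p = 0.029 from edgeR) and Asns (-1.37, unadjusted p = 0.00231 from edgeR) when WT replicate 3 was also left out, a fit in which 8.2% of all 15287 genes passed that limit. WT replicate 1 was then alone, and was assumed to vary like the cKO libraries. Over all genes and 6 libraries, DESeq2 called 2 genes at an adjusted p under 0.05 against 0, and leaving out 1 library gave 0 to 1. At an unadjusted p under 0.05 the 277 genes became 140 with filterByExpr, 543 with voomWithQualityWeights and between 65 (lacking cKO replicate 3) and 874 (lacking WT replicate 1) with 1 library left out. In the 5 libraries other than WT replicate 2, DESeq2 called 3 genes against 1 at an adjusted p under 0.05 and leaving out a further library gave 0 to 1, while the 461 genes at an unadjusted p under 0.05 became 186 to 1253.

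Deviations of same-numbered libraries from their group means had correlations of -0.01, -0.21 and 0.20. With 3 libraries per group, WT replicate 2 among them, these values cannot decide whether the shared numbers pair the libraries. With the replicate block, 85 genes over all 6 libraries had an unadjusted p under 0.05 and, without WT replicate 2, 745 did and 63 had an adjusted one, with 0 of the 10 genes among either. Not every library correlated best with its own number. Log2 fold changes that turned sign under the block were 0.0070 for Ppp1r15a and 0.043 for Atf3 over all 6 libraries, and -0.019 for Xbp1 and -0.0045 for Hspa5 without WT replicate 2.

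Other signs turned with voomWithQualityWeights for Ppp1r15a (0.21), Atf6 (0.18), Herpud1 (0.15), Eif2s1 (0.050), Atf3 (0.29), Traf2 (0.024) and Calr (-0.12), with library size only for Xbp1 (-0.042) and Pdia3 (-0.017), and for Atf3 with DESeq2 (0.0082) and median-of-ratios scaling (0.0082). The cause was not tested. With 1 library left out of the 6, log2 fold changes spanned 0 for Ddit4 (-0.13 to 0.040), Ppp1r15a (-0.33 to 0.29), Asns (-0.70 to 0.67), Xbp1 (-0.042 to 0.064), Atf6 (-0.305 to 0.20), Hspa5 (-0.088 to 0.057), Herpud1 (-0.70 to 0.20), Eif2s1 (-0.17 to 0.061), Ppp1r15b (-0.00072 to 0.20), Atf3 (-0.23 to 0.31), Slc38a2 (-0.52 to 0.031), Traf2 (-0.33 to 0.011), Pdia3 (-0.0069 to 0.11) and Calr (-0.13 to 0.20). Among the 5 other than WT replicate 2 they did so for Atf4 (-0.28 to 0.087), Ddit3 (-0.22 to 0.086), Ddit4 (-0.22 to 0.064), Asns (-1.37 to 0.64), Xbp1 (-0.033 to 0.15) and Hspa5 (-0.025 to 0.13). Depth limits Chac1, at 0 to 6 counts.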

Other observations

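The cytosolic heat shock genes, picked after their values were seen, did not follow the ER chaperone Hspa5. Hspa1a measured 2697, 1831 and 1820 CPM in WT Tregs against 3763, 1750 and 1609 CPM in cKO Tregs, and Hsp90aa1 was at 2360 CPM in cKO replicate 1 against 1363 to 1701 CPM in the other libraries. Both were highest in cKO replicate 1, where Hspa5 was at 892 CPM, within the 760 to 943 CPM of the other libraries. Neither gene differed detectably between the groups, with unadjusted p = 0.677 for Hspa1a and 0.809 for Hsp90aa1 from edgeR. The 95% intervals allowed a cKO level of 0.603 to 2.09 times WT for Hspa1a and 0.689 to 1.59 times for Hsp90aa1. As for Hspa5, the deposited counts of Hspa1a were not whole numbers in any of the 6 libraries.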
